A study of Mus musculus with 8 samples.

Results

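Pde3b, Pde4a, Pde4b, Pde4d, Pde7a and Adcy7, 6 of the 52459 genes listed by symbol, were followed in regulatory T (Treg) cells of 4 groups that differ in genotype and stimulation. The 6 genes were chosen by their symbols as enzymes that degrade or make cyclic AMP (cAMP), and Pde3b is known as a gene that the transcription factor Foxp3 represses. cAMP is made by adenylyl cyclases, which receptors coupled to Gs switch on, and it is degraded by cyclic nucleotide phosphodiesterases. It activates protein kinase A and the EPAC exchange factors, and protein kinase A in turn phosphorylates CREB. Treg cells are known for a high content of cAMP, part of which they can pass to the T cells that they suppress, and the low level of Pde3b is a known feature of their gene expression.

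Treg cells had been sorted as CD4+CD25hi cells from spleen and lymph nodes of healthy female mice of the strain C57BL/6 that were heterozygous for Foxp3-YFPcre, an X-linked allele in which the Foxp3 promoter drives Cre. Their genotype is labelled Stim1 fl/f and Stim2 fl/fll with Foxp3-YFPcre, and STIM1 and STIM2 are the calcium sensors of the endoplasmic reticulum that open the Orai channels of store-operated calcium entry. The cells that express YFPcre are labelled Stim1/2-deficient (DKO), and the cells that do not express it, from mice of the same genotype, are labelled WT, so that the WT cells also carried the floxed alleles. Each sample was a pool of several mice, whose ages are not given in the sources used here, and the pools are the replicates. Both genotypes were sequenced unstimulated and after 16 h on plate-bound antibodies to CD3 and CD28 (1 µg/ml), with 2 libraries in each group, and the WT unstimulated libraries carry the numbers 3 and 4 and all others 1 and 2. Genotype cannot be told apart from expression of the YFPcre allele, and stimulation cannot be told apart from the sequencing lane, since unstimulated libraries shared one lane and stimulated libraries another. P-values measure the spread between these pools.

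The values, called normalized counts, are reads of a gene over the size factor of its library, and 1 read was worth 0.759 to 1.48 of them at a depth of 11851853 to 16306540 reads on genes. In unstimulated cells, those labelled Stim1/2-deficient held 1538 and 1868 normalized counts of Stim1 against 1139 and 1377 in WT (log2 fold change 0.44, limma adjusted p = 0.236). Stim2 was at 904 and 744 against 906 and 908, below both WT libraries but with a log2 fold change of -0.15 that did not pass the test (limma adjusted p = 0.721). The labels rest on YFPcre at the sort, and a count over a whole gene cannot show whether a floxed exon is missing. Names of groups are those of the labels, and "labelled" stands for labelled Stim1/2-deficient. All 7 markers of T and Treg cells were detected in every library, and their summed level was 42374 and 49397 in labelled unstimulated libraries and 68989 to 113920 in all others. Of the 7, 5 were below both WT unstimulated libraries there (Ctla4, Ikzf2, Foxp3, Il2ra and Cd3e), as for 27.1% of all genes tested. Ctla4 was at 6338 and 17333 against 37404 and 35119, and Cd3e at 3042 and 3156 against 3424 and 3294. Cd4, at 10363 and 7005 against 10760 and 8918, overlapped. Markers of other cells stood apart in labelled unstimulated replicate 1. Its sum of 10 markers of macrophages and myeloid cells was 10397, against 1648 in replicate 2 and 228 to 343 in the other 6 libraries, and C1qa, a complement gene of macrophages, was at 0 in those 6. Its sum of 8 B cell markers was 2904, against 678 in replicate 2 and 171 to 1313 elsewhere. The part of these cells in the results was not tested. For the 6 genes, genotype differences in unstimulated cells that turn on replicate 1 or 2 are given with libraries left out. For most other genes such values are not given, and their results can turn on 1 replicate too. In such bulk samples, fewer cells of a type and less RNA per cell cannot be told apart.

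**Figure D1:**
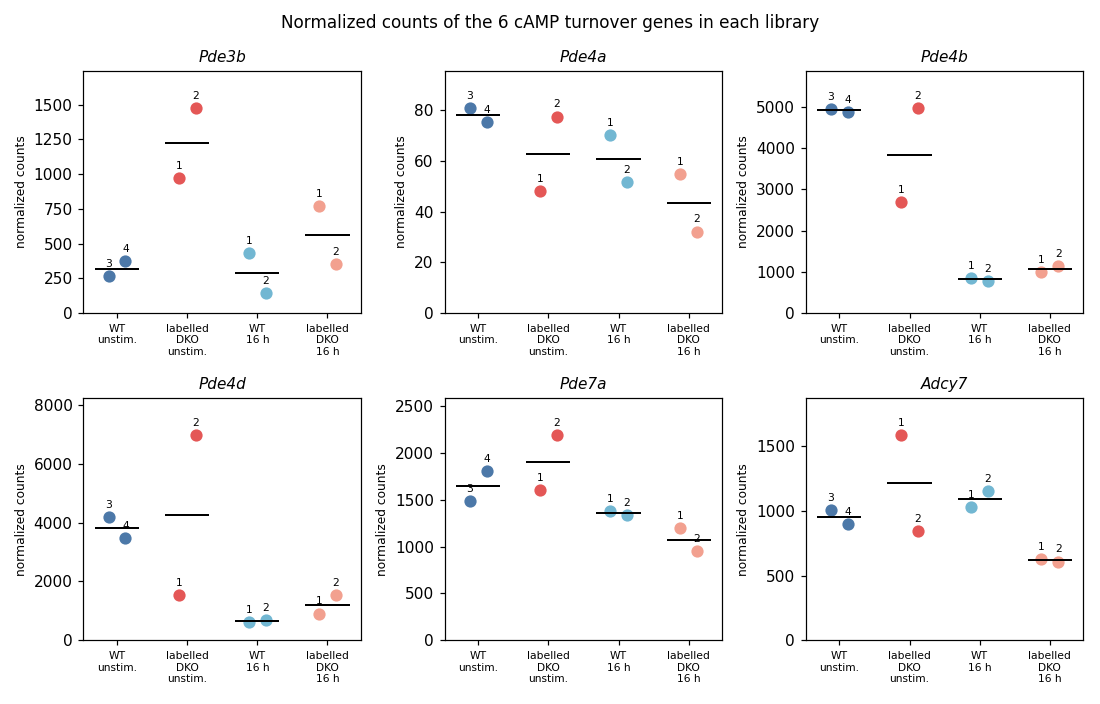
Normalized counts (vertical axes, linear, from 0) of the 6 genes in the 8 libraries, 1 panel a gene, with groups on the horizontal axes (DKO, labelled Stim1/2-deficient; 16 h, stimulated). Points are libraries with their replicate numbers and lines are means of 2; Pde3b stood highest in the 2 labelled unstimulated libraries (971 and 1477), and Pde4b and Pde4d were lower in all stimulated than in all unstimulated libraries.

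PDE3B, which hydrolyses cAMP and is inhibited by cyclic GMP, is encoded on chromosome 7 from 114415222 to 114537938 (GRCm38.p6). In unstimulated cells, the WT libraries held 263 and 377 normalized counts of Pde3b and the labelled libraries 971 and 1477. Each labelled library exceeded each WT library, which was the case for 26.5% of all 15419 genes tested, and no other of the 6 genes was apart, while 27.1% of all genes were apart in the other direction. The log2 fold change was 1.92 (standard error 0.50, 95% interval 0.81 to 3.04), or 3.79-fold, which ranked 438th from the highest among the genes tested. At a limma adjusted p = 0.0586 the difference did not pass the threshold of 0.05, with an unadjusted p = 0.00319 in the same fit. DESeq2 on recovered reads called it (adjusted p = 0.000789), as did 6 others of 18 alternatives, over which adjusted p ranged to 0.432, while edgeR did not. Without labelled replicate 1, which stood apart by its macrophage and B cell markers, the log2 fold change was 2.23, and without replicate 2 it was 1.62.

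After 16 h of stimulation, Pde3b was at 430 and 146 normalized counts in WT and at 767 and 350 in labelled libraries. The groups overlapped, since WT replicate 1 exceeded labelled replicate 2. The genotype difference was 1.04 on the log2 scale (95% interval -0.07 to 2.16, limma adjusted p = 0.398), and no alternative of 19 called it, with values from 0.27 without WT replicate 2 to 1.82 without WT replicate 1. In each genotype replicate 1 was the higher library. Replicate 1 also held more B cell markers, with sums of 894 and 171 in WT and 1313 and 272 in labelled stimulated libraries, and the part of these cells in the level of Pde3b was not tested. The effect of stimulation on Pde3b in WT cells was -0.33 on the log2 scale (95% interval -1.44 to 0.79, limma adjusted p = 0.671), and it was 0.45 without WT stimulated replicate 2. In labelled cells both stimulated libraries were below both unstimulated ones, with a log2 fold change of -1.21 (standard error 0.50) and a limma adjusted p = 0.103. DESeq2 called this decrease (-1.15, adjusted p = 0.0417, range over 19 alternatives 0.00153 to 0.454). The interaction, which is the difference between both genotype effects, was -0.88 (95% interval -2.46 to 0.70, limma adjusted p = 0.756).

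Foxp3 itself was at 10001 and 8159 normalized counts in WT unstimulated libraries and at 4947 and 4258 in labelled ones. After stimulation, WT libraries held 8525 and 11918 and labelled libraries 4474 and 7253. Each labelled library was below each WT library in either state, as for 27.1% of all genes tested in unstimulated and 23.1% in stimulated cells. The log2 fold changes were -0.98 (limma adjusted p = 0.0591) and -0.82 (limma adjusted p = 0.177), neither of which passed the threshold. DESeq2 called Foxp3 lower in unstimulated but not in stimulated cells, and edgeR called it in neither. Over the 8 libraries, Pearson's r between the log2 levels of Pde3b and Foxp3 was -0.95, the third most negative value among 15418 other genes, after Tnfrsf13b (-0.97) and Acvr1 (-0.95). In each of the 4 groups the library with more Foxp3 held less Pde3b. These 8 points share their groups, pools and lanes, and the correlation is a description.

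**Figure D2:**
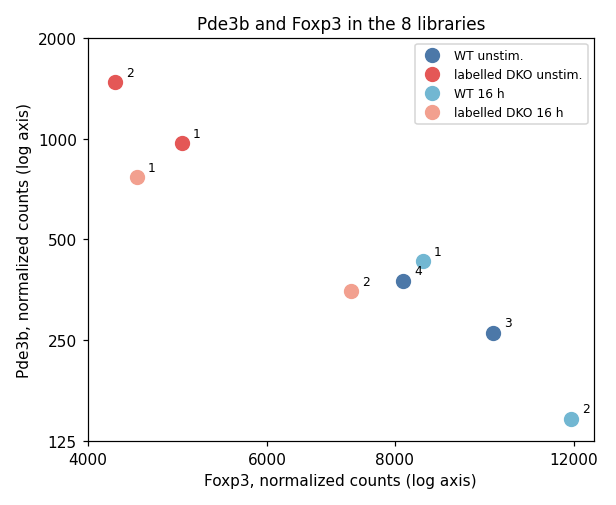
Normalized counts of Pde3b (vertical axis, log scale) against those of Foxp3 (horizontal axis, log scale) in the 8 libraries, coloured by group and numbered by replicate (DKO, labelled Stim1/2-deficient). Pde3b ran from 1477 in a library with 4258 of Foxp3 to 146 in the library with 11918.

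The genes with the pattern most like that of Pde3b, by the highest Pearson's r of log2 values over 8 libraries, were Eif3j1 (0.97), Gm15700 (0.95), Gm19078, Cacna1e and Mctp2 (each 0.94). Mctp2 was at 115 and 115 normalized counts in WT and 618 and 500 in labelled unstimulated libraries, and it was called in that comparison (limma adjusted p = 0.0252). Cacna1e, which encodes a voltage-gated calcium channel, was at 3.24 and 14.8 against 241 and 82.8 normalized counts (limma adjusted p = 0.122). None of the 5 other cAMP genes was close to Pde3b by this measure, with r from -0.05 for Adcy7 to 0.46 for Pde7a.

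Satb1, Il7r, Il2 and Ptpn22 are other genes known as repressed by Foxp3. Between the genotypes, 0 of these 4 were called by limma or edgeR in either state, beside 4.73% and 0.272% of all genes by limma. At an unadjusted p under 0.05 with over 1.5-fold, 1 was higher in unstimulated cells (19.7% of all genes passed). In stimulated cells 1 was higher and 2 were lower by this rule (12.6% of all genes passed). DESeq2 called Satb1 higher in both states and Ptpn22 lower in stimulated cells. Of all 15419 genes, DESeq2 called 511 higher and 810 lower in unstimulated cells, and 238 higher and 287 lower in stimulated cells. Satb1, a chromatin organizer, was at 15183 and 17809 normalized counts in WT and at 19149 and 45797 in labelled unstimulated libraries, and after stimulation at 5157 and 3519 against 13410 and 13761. Its log2 fold changes were 0.85 (limma adjusted p = 0.185) and 1.67 (limma adjusted p = 0.0703). Il7r, the receptor of interleukin-7, and Ptpn22, a phosphatase of T cell receptor signaling, had log2 fold changes of -0.25 and -0.56 in unstimulated and of -0.98 and -0.93 in stimulated cells. With stimulation all 4 were called in both genotypes, Il2 higher and the other 3 lower. Of all genes tested, 10.2% were called higher and 13.1% lower in WT cells, and 13.0% higher and 12.0% lower in labelled cells.

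PDE4B and PDE4D belong to the phosphodiesterases specific for cAMP that rolipram inhibits, as does PDE4A. Pde4b lies on chromosome 4 from 102087332 to 102607275, Pde4d on chromosome 13 from 108654177 to 109955969 and Pde4a on chromosome 9 from 21165700 to 21213248. Both Pde4b and Pde4d fell with stimulation in WT cells. Pde4b was at 4951 and 4879 normalized counts in unstimulated and at 850.3 and 779 in stimulated WT libraries, 6.03-fold lower (log2 fold change -2.59, standard error 0.26, limma adjusted p = 0.000459). Pde4d was at 4181 and 3485 before and at 620.4 and 692 after, 5.82-fold lower (log2 fold change -2.54, standard error 0.54, limma adjusted p = 0.00942). The groups were far apart for both genes, which ranked 378th and 405th from the lowest among all genes tested. These were the 2 called of the 6 genes, beside 13.1% of all genes called lower and 10.2% called higher. Pde4b was called under all 18 alternatives and Pde4d under 14, and the 4 that lost it each left out 1 of the WT libraries (adjusted p from 0.0605 to 0.0738).

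The promoters of these genes are shown because both transcripts fell together. Of the 6 genes, 4 had promoter windows in the RefSeq annotation of GRCm38.p6, with 11 windows between them (Pde4b 4, Adcy7 3, Pde4a 3 and Pde4d 1), each from 250 bases before to 50 after an annotated start. Pde3b and Pde7a are named only. Windows were searched on both strands for the CRE, the CREB site TGACGTCA, for its core TGACG, which the CRE contains, and for TGGAAA, the core of sites for NFAT, the factor that calcium and calcineurin activate. The CRE was in 1.79% of all 32851 windows and in 0 of these 11, the CRE core in 20.8% of all and in 3 of 11, and the NFAT core in 21.4% of all and in 3 of 11. The CRE core lay in windows of Pde4b, Adcy7 and Pde4a, and the NFAT core in windows of Pde4b, Adcy7 and Pde4d. Windows without either core are not printed, nor are those of Pde4a. The part of these sites in the levels was not tested. The 250 bases before the start, on the plus strand, follow for a pair of Pde4b starts and for Pde4d, with either core in capitals on whichever strand it lies, and a count over a whole gene does not show which start was used.
Pde4b, chr4:102421305-102421554, CRE core 34 bases before the start: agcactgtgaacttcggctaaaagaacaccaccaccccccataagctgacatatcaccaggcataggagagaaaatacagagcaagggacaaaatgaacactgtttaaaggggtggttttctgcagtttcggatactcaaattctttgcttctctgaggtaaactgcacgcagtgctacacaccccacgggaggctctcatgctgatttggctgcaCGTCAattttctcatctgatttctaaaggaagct
Pde4b, chr4:102589593-102589842, NFAT core 49 bases before the start: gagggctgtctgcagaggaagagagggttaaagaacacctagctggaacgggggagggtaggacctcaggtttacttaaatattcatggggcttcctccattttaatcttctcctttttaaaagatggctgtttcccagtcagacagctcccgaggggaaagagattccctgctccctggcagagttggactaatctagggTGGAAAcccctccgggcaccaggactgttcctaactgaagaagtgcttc
Pde4d, chr13:108653927-108654176, NFAT core 233 bases before the start: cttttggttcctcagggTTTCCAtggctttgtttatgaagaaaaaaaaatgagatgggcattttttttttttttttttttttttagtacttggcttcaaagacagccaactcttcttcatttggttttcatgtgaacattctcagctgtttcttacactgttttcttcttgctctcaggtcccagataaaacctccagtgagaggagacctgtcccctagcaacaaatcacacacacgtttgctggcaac

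In labelled cells, Pde4b also fell with stimulation, from 2694 and 4980 normalized counts to 986 and 1141, and was 3.45-fold lower (log2 fold change -1.79, limma adjusted p = 0.00155). It was called under all 19 alternatives, with values from -2.23 without unstimulated replicate 1 to -1.34 without unstimulated replicate 2. Pde4d went from 1538 and 6980 to 906 and 1526 normalized counts. Its groups did not overlap, and the log2 fold change of -1.48 (standard error 0.54) missed the threshold at a limma adjusted p = 0.0704, while edgeR called it (-1.79, adjusted p = 0.0374) and DESeq2 did not (adjusted p = 0.0557). The unstimulated replicates decided its size, at -2.57 without replicate 1, when it was called (adjusted p = 0.000409, range over 19 alternatives 2.86e-05 to 0.376), and at -0.39 without replicate 2. Pde4a was low throughout, at 32.1 to 80.9 normalized counts, and none of its 4 comparisons passed the test, with adjusted p from 0.387 to 0.688.

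Between the genotypes, no phosphodiesterase of the PDE4 family was called. In unstimulated cells Pde4b and Pde4d of the labelled libraries lay on both sides of the WT libraries, with log2 fold changes of -0.42 (limma adjusted p = 0.374) and -0.22 (limma adjusted p = 0.858). Labelled replicate 1 was low for both. Without it, the values were 0.02 for Pde4b and 0.87 for Pde4d, and without replicate 2 they were -0.87 and -1.31, both called (adjusted p = 0.0199 and 0.0286, with upper ends of 0.963 and 0.984 over 18 alternatives). After stimulation the labelled libraries exceeded both WT libraries for Pde4b and for Pde4d, as for 24.3% of all genes tested. The log2 fold changes were 0.38 (95% interval -0.20 to 0.96, limma adjusted p = 0.576) and 0.84 (95% interval -0.36 to 2.05, limma adjusted p = 0.548). Their interactions were 0.81 (limma adjusted p = 0.614) and 1.06 (limma adjusted p = 0.725).

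PDE7A is a phosphodiesterase of high affinity for cAMP that rolipram does not inhibit, and its gene lies on chromosome 3 from 19223108 to 19311322. Pde7a ranged from 952 to 2190 normalized counts. WT libraries held 1483 and 1808 before and 1376 and 1336 after stimulation, a value of -0.27 on the log2 scale (limma adjusted p = 0.389). Labelled libraries went from 1603 and 2190 to 1197 and 952, a decrease of 1.75-fold that was called (log2 fold change -0.81, standard error 0.22, limma adjusted p = 0.0216). It was called under 15 of 19 alternatives, but not with libraries scaled to equal totals, in a fit of the 4 labelled libraries alone or without labelled unstimulated or stimulated replicate 2, with adjusted p from 0.00522 to 0.135. The genotype difference was 0.19 in unstimulated and -0.34 in stimulated cells (limma adjusted p = 0.649 and 0.535), and after stimulation the labelled libraries lay beneath the WT libraries, as for 23.1% of all genes tested.

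ADCY7 makes cAMP and is the membrane adenylyl cyclase known from blood cells, encoded on chromosome 8 from 88272190 to 88329965, where its end overlaps Brd7. WT libraries held 1007 and 898 normalized counts of Adcy7 before and 1032 and 1156 after stimulation, 0.20 on the log2 scale (limma adjusted p = 0.630), with both stimulated libraries above, as for 35.0% of all genes tested. Labelled libraries held 1586.5 and 845 before and 627 and 608 after, a decrease of 1.87-fold that was called (log2 fold change -0.91, standard error 0.27, limma adjusted p = 0.0345). The 2 labelled stimulated libraries were the lowest of the 8. The call was less firm than that of Pde4b, since it held under 9 of 19 alternatives and the log2 fold change was -0.45 without unstimulated replicate 1 (adjusted p = 0.110, range 0.00251 to 0.194). Within stimulated cells, the labelled libraries were below the WT libraries by 1.77-fold (log2 fold change -0.82, 95% interval -1.43 to -0.22), with an unadjusted p = 0.0126 and a limma adjusted p = 0.201. In unstimulated cells the genotypes overlapped, at 0.28 (limma adjusted p = 0.585), and the value was -0.17 without labelled replicate 1 and 0.74 without replicate 2. The interaction of -1.11 (standard error 0.38) had the smallest unadjusted p of the 6 genes, 0.0162, and a limma adjusted p = 0.567. The first 250 bases before a start of Adcy7 that holds the CRE core are shown for comparison with the CRE core of Pde4b.
Adcy7, chr8:88282742-88282991, CRE core 28 bases before the start: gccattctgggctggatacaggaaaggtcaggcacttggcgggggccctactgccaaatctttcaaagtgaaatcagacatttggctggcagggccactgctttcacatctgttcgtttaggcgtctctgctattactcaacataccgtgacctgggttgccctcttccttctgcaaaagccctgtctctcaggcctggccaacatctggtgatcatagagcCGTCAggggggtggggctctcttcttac

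**Figure D3:**
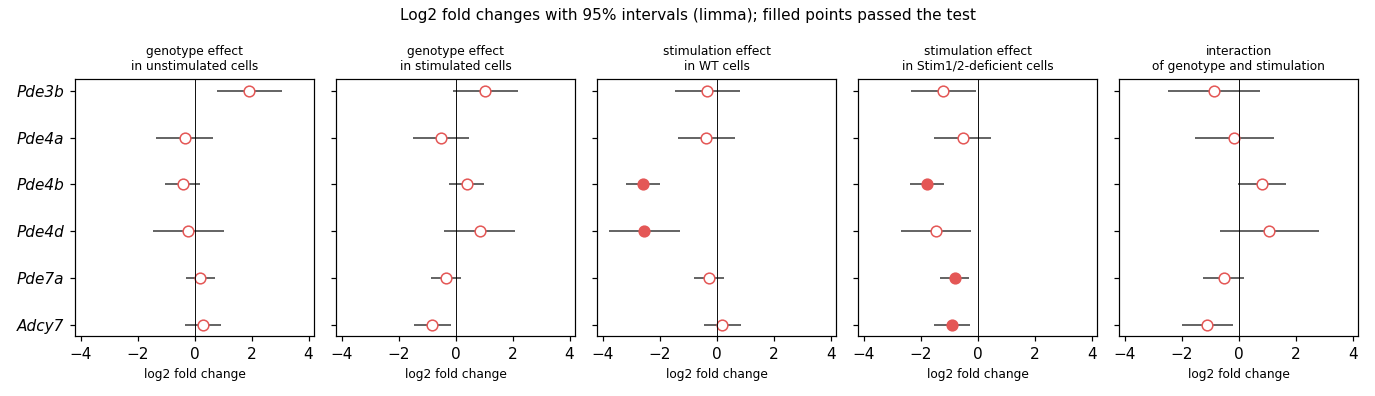
Log2 fold changes (horizontal axes, log2 scale) of the 6 genes (rows) in the 4 comparisons and their interaction (panels), with 95% intervals from limma on 8 libraries. Filled points passed the test, which were Pde4b and Pde4d with stimulation in WT cells and Pde4b, Pde7a and Adcy7 with stimulation in labelled cells, all lower.

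Counted over the 6 genes, 0 were called between the genotypes in unstimulated cells (limma, against 4.73% of all genes tested), 0 by edgeR and 1 by DESeq2. At an unadjusted p under 0.05 with over 1.5-fold, 1 passed (19.7% of all genes). After stimulation 0 were called (0.272% of all genes) and 0 by either other tool. Here 1 passed at an unadjusted p under 0.05 with over 1.5-fold (12.6% of all genes). With stimulation, 2 were called lower in WT cells, and 3 were called lower in labelled cells, beside 12.0% of all genes called lower and 13.0% called higher. Both edgeR and DESeq2 called the same 2 in WT cells and 4 in labelled cells, to which edgeR added Pde4d and DESeq2 Pde3b. The median log2 fold change of the 6 genes was -0.35 in WT and -1.06 in labelled cells, beside 0.01 and -0.03 over all genes tested. For 5 of the 6 genes both labelled stimulated libraries were below both unstimulated ones, as for 30.6% of all genes, and in WT cells for 4, as for 36.0%. Scaling the libraries to equal totals moved the median of all genes by 0.51 in WT and 0.38 in labelled cells, and then Pde4b and Pde4d remained called in WT cells and only Pde4b in labelled cells. No gene of the series was called for the interaction by limma (0 of 15419) or edgeR, and DESeq2 called 34 higher and 13 lower. At an unadjusted p under 0.05 with over 1.5-fold, 8.09% of all genes passed, and of the 6 genes 1, Adcy7. Neither edgeR nor DESeq2 called an interaction of any of the 6, whereas without labelled unstimulated replicate 2 Pde4b, Pde4d and Adcy7 were called, beside 179 genes higher and 17 lower of all 15419.

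Levels of different genes were compared as normalized counts per kb of merged exon (GENCODE vM1, NCBIM37). In WT unstimulated cells Pde4b stood first at 465 ± 4.82 per kb (SD, n = 2), followed by Pde4d at 277 ± 35.5, Pde7a at 212 ± 29.7, Adcy7 at 150 ± 12.1, Pde3b at 46.4 ± 11.6 and Pde4a at 10.2 ± 0.517. Each neighbour in this order was apart from the next in both libraries. In labelled unstimulated cells the order of the means was the same, with Pde3b at 177 ± 51.9 per kb, and no neighbours from Pde4b down to Pde3b were apart. In WT stimulated cells Pde7a (175 ± 3.72 per kb) and Adcy7 (173 ± 13.8) shared the first place, and Pde4b followed at 77.1 ± 4.77, Pde4d at 47.3 ± 3.64 and Pde3b at 41.7 ± 29.2. Labelled stimulated cells had Pde7a first at 139 ± 22.3 per kb, and Pde4b, Adcy7, Pde4d and Pde3b between 101 and 80.9 without neighbours that were apart.

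**Figure D4:**
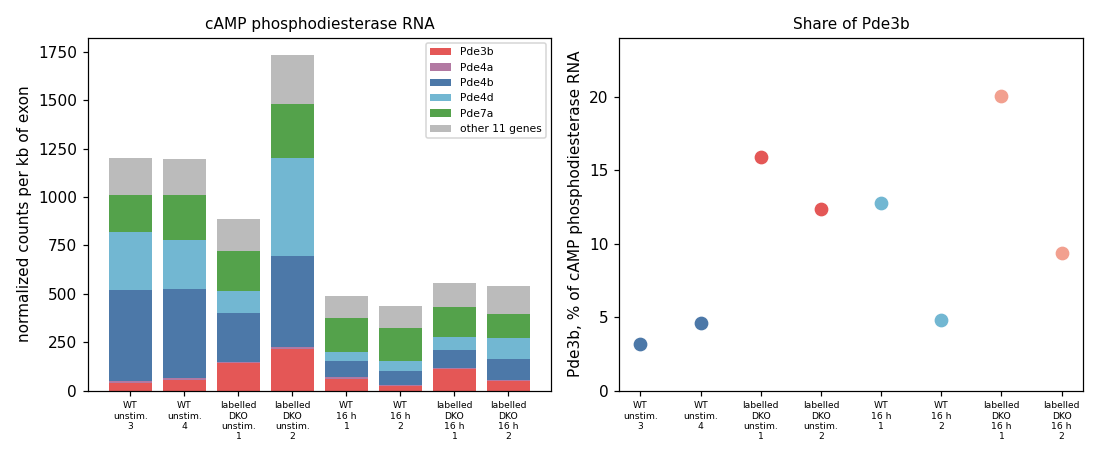
Left, normalized counts per kb of exon of the 16 phosphodiesterases that take cAMP, stacked, in the 8 libraries; right, the percent of this sum that was Pde3b (vertical axes from 0; DKO, labelled Stim1/2-deficient). Stimulated bars were 438 to 555 high against 887 to 1736 for unstimulated ones, and the share of Pde3b ran from 3.18% to 20.0%.

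The 16 phosphodiesterases that take cAMP summed to 1200 and 1194 normalized counts per kb in WT and to 887 and 1736 in labelled unstimulated libraries. After stimulation the sums were 487 and 438 in WT and 555 and 541 in labelled libraries, so that all stimulated libraries lay below all unstimulated ones. Pde3b made up 3.18% and 4.57% of this sum in WT and 15.9% and 12.3% in labelled unstimulated libraries. In stimulated cells its share was 12.8% and 4.83% in WT and 20.0% and 9.37% in labelled libraries, and the groups overlapped. Pde4b made up 39.1% and 38.7% in WT unstimulated and 16.5% and 16.9% in WT stimulated libraries, whereas the shares of Pde7a were 16.0% and 19.5% before and 36.4% and 39.4% after stimulation. Pde8a, another phosphodiesterase of high affinity for cAMP, which was not called in any comparison, took 8.60% to 20.8%. Among 10 adenylyl cyclases, Adcy7 made up 47.4% to 71.0% of the RNA per kb, least in the labelled stimulated libraries (55.8% and 47.4%) and in labelled unstimulated replicate 2 (53.2%).

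The rest of the pathway was described by 71 genes in 9 groups, of which 57 passed the filter on low values and were tested. In unstimulated cells 3 of them were called higher and 3 lower in labelled libraries, beside 1.38% and 3.35% of all genes, with a median log2 fold change of -0.01, beside -0.01 over all genes. Rapgef4, which encodes the EPAC2 exchange factor, was at 155 and 201 normalized counts in WT and at 591 and 450.1 in labelled libraries (log2 fold change 1.54, limma adjusted p = 0.0231). Adcy6, an adenylyl cyclase that calcium inhibits, was at 168 and 176 against 410.0 and 390.0 (1.21, limma adjusted p = 0.0465). Vipr1, a receptor of vasoactive intestinal peptide coupled to Gs, was at 41.0 and 26.6 against 120 and 120 (1.83, limma adjusted p = 0.0398). These 3 genes were higher in both labelled libraries, and none was called without labelled unstimulated replicate 1.

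The 3 genes called lower were Gpr65, Prkar1a and Akap1. Gpr65, an acid-sensing receptor coupled to Gs, was at 802 and 737 normalized counts in WT and 344 and 299 in labelled unstimulated libraries (log2 fold change -1.26, limma adjusted p = 0.0199). Prkar1a, the regulatory subunit RIα of protein kinase A, was at 8261 and 7257 against 2836 and 5068 (-1.03, limma adjusted p = 0.0451). Akap1, which anchors protein kinase A to mitochondria, was at 62.6 and 57.6 against 19.9 and 10.7 (-1.97, limma adjusted p = 0.0464). Adora2a, the adenosine receptor known for raising cAMP in T cells, was at 706 and 648.5 in WT and 110 and 291 in labelled libraries, and its log2 fold change of -1.91 was not called (limma adjusted p = 0.215). All 6 calls were lost without either WT unstimulated replicate, when the group rested on a single library. Most calls over all genes tested were lost in these fits too.

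**Figure D5:**
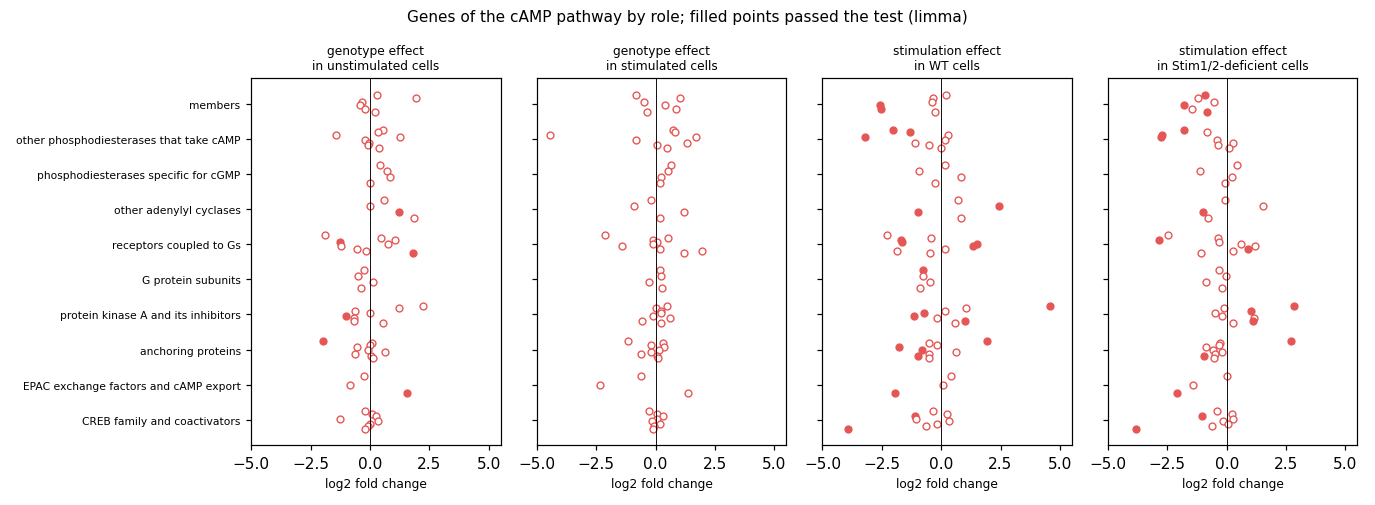
Log2 fold changes (horizontal axes, log2 scale) of the 6 genes and of the 57 tested genes of the pathway, grouped by role (rows), in 4 comparisons (panels); points are genes, filled where they passed the test. Between the genotypes 6 of the 57 passed in unstimulated and 0 in stimulated cells, and with stimulation 21 passed in WT and 14 in labelled cells.

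In stimulated cells 0 of the 57 genes were called between the genotypes (limma), 0 by edgeR and 4 by DESeq2 (Adcy6, Pde1c, Ptger2 and Rapgef4). At an unadjusted p under 0.05 with over 1.5-fold, 11 of them passed. Of all 15419 genes, 0.272% were called, 12.6% passed by this unadjusted rule, and DESeq2 called 238 higher and 287 lower. Rapgef4 was at 41.3 and 50.1 normalized counts in WT and 110 and 129 in labelled libraries (log2 fold change 1.37, limma adjusted p = 0.0832), and Adcy6 at 75.6 and 99.5 against 163 and 246 (1.20, limma adjusted p = 0.109). Their interactions were -0.17 and -0.02. Gpr65 was at 275 and 211 against 245 and 262, with an interaction of 1.33 (unadjusted p = 0.00231, limma adjusted p = 0.556). Pde1c, a phosphodiesterase that calmodulin activates, was at 44.4 and 25.8 normalized counts in WT and at 1.59 and 0 (2 reads and 0 reads) in labelled libraries (limma adjusted p = 0.0537). Ptger2, a prostaglandin E2 receptor coupled to Gs, was at 559 and 521 against 259 and 156 (-1.42, limma adjusted p = 0.156), Adora2a at 153 and 126 against 99.3 and 9.29, and Rapgef3, the EPAC1 gene, at 17.9 and 40.2 against 4.76 and 4.22.

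With stimulation, 6 of the 57 genes were called higher and 15 lower in WT cells, and 5 higher and 9 lower in labelled cells. Of all genes tested, 10.2% were called higher and 13.1% lower in WT cells, and 13.0% higher and 12.0% lower in labelled cells. The medians of the 57 were -0.45 and -0.33 on the log2 scale, beside 0.01 and -0.03 over all genes. Among the 8 other phosphodiesterases that take cAMP, 3 were called lower in each genotype and 0 higher. Pde1b went from 178 and 133 to 71.7 and 52.4 normalized counts in WT cells, Pde11a from 59.3 and 68.0 to 14.0 and 15.9, and Pde2a, which cyclic GMP activates, from 25.9 and 19.2 to 1.56 and 1.52 (2 reads in each). In labelled cells the 3 were Pde1c, Pde2a and Pde11a. Of the 4 phosphodiesterases specific for cyclic GMP that were tested, 0 were called in any comparison by limma, edgeR or DESeq2. None of them, 0 of 4, had an unadjusted p under 0.05 with a change of over 1.5-fold.

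Receptors and cyclases moved in both directions, with 2 of 9 receptors called higher and 2 lower in WT cells and 1 each way in labelled cells. The shares of all genes called higher and lower were 10.2% and 13.1% in WT cells and 13.0% and 12.0% in labelled cells. Ptger2 rose in WT cells from 193 and 228 to 559 and 521 (limma adjusted p = 0.0376), and Hrh2, a histamine receptor, from 92.8 and 79.8 to 228 and 268 (limma adjusted p = 0.0141). Ptger4, another prostaglandin E2 receptor, was called higher in labelled cells, from 1222 and 1277 to 1958 and 2687 (limma adjusted p = 0.0118), and was at 1799 and 1814 before and 1817 and 2232 after stimulation in WT cells. Adcy6 fell in both genotypes, by 0.98 and 1.00 on the log2 scale. Adcy4 was higher in WT stimulated libraries, at 49.9 and 50.9 against 9.71 and 7.39 normalized counts (limma adjusted p = 0.0284).

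Downstream of cAMP, Sik1, a kinase gene that CREB induces, had the largest decrease of the 57 genes, from 5304 and 4272 to 290 and 346 normalized counts in WT and from 2384 and 6977 to 310.5 and 271 in labelled cells (log2 fold changes -3.90 and -3.81, limma adjusted p = 0.000467 and 0.000373). Crebbp, the coactivator of CREB, fell by 1.09 and 1.03 on the log2 scale, and Rapgef4 by 1.93 and 2.11. Pkib, an inhibitor of protein kinase A, rose from 6.47 and 8.86 to 471 and 88.1 normalized counts in WT and from 81.8 and 18.7 to 475 and 170 in labelled cells (limma adjusted p = 0.00530 and 0.0354), but neither edgeR nor DESeq2 called it in labelled cells. In each genotype stimulated replicate 1, which held more B cell markers, had the higher level of Pkib, and their part in it was not tested. The regulatory subunit gene Prkar2a rose in both genotypes (0.99 and 1.11), as did Akap1 (1.93 and 2.72), while Akap8 fell in both (-0.97 and -0.95). In WT cells Prkar1a (-1.14), Prkacb (-0.72), Gnai2 (-0.78), Gpr65 (-1.67), Akap12 (-1.79) and Akap13 (-0.80) were also called lower, and in labelled cells Prkaca, a catalytic subunit, was called higher (1.03, limma adjusted p = 0.0372). Crem, a CREB relative, was not called, at 4184 and 4760 before and 2091 and 2133 after stimulation in WT cells. When single libraries were left out, the number of called genes fell most in WT cells without any 1 of the 4 WT libraries. Calls over all genes tested in WT cells also fell most without these libraries.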

How the data were processed

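RNA of sorted Treg cells was sequenced in 8 libraries, 2 in each of 4 groups, grouped as the labels give genotype and stimulation. In the deposited table, the authors give a signal value for each gene, which is its read count over the size factor of the library. Whole reads were recovered from at least 99.99% of the values of each library (tolerance 0.02), and DESeq2 size factors of these reads departed from the scaling by at most 0.000327 percent. Sources differ on the steps before. The methods name the assembly NCBIM37, Bowtie, Picard and HTSeq, whereas the submitters' processing notes name mm10, bcl2fastq 1.8.4, STAR 2.7 and DESeq2, and whether counting used strand is not given in the sources used here. Symbols of 66.9% of the genes matched RefSeq on GRCm38.p6, which gave positions and promoters, and 54.9% matched GENCODE vM1 on NCBIM37, which gave exon lengths.

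After adding a pseudocount of 1, log2 values were modelled in R 4.3.3 by limma 3.58.1, with lmFit and a trended eBayes, on the 15419 genes with a mean of at least 10, with 1 spread for the 4 groups. Tests were 2-sided, Benjamini-Hochberg adjustment covered all genes of a contrast, and a call needed both an adjusted p under 0.05 and a change of over 1.5-fold. Counts and shares of genes at an unadjusted p under 0.05 also needed a change of over 1.5-fold. The design had named this test for a normalized table, and on recovered reads DESeq2 1.42.0 and the quasi-likelihood test of edgeR 4.0.16 were alternatives. The others were pseudocounts of 0.1 and 5, every gene above 0, a mean of at least 100, equal totals or upper quartiles, quantile normalization, 4 libraries alone, a term for the replicate number, the unadjusted p, 2-fold, and each library left out in turn. The script was tested on simulated data. Fold changes are on the log2(value + 1) scale, which understates those of low genes. A group with at most 3 reads in both libraries gets no fold.

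The genes named are the 6, Foxp3, Stim1 and Stim2, the 4 genes known as repressed by Foxp3, pathway genes called in any comparison or with the largest change of their group, and the 5 genes most like and 3 most opposite to Pde3b. The 6 genes and all lists were chosen with earlier results of these data known. Pde8a, C1qa and Brd7 fall outside this rule and were chosen after their values or positions were seen. A listed gene that this rule covers is not reported here.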

Additional observations from a re-analysis of the deposited data

Results flagged for a closer look

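Adcy7 was noted because its stimulated libraries lay on opposite sides of the unstimulated ones in the genotypes. Both WT stimulated libraries lay above both WT unstimulated ones (log2 fold change 0.20, not called, limma adjusted p = 0.630), as for 35.0% of all genes tested. Both labelled stimulated libraries lay below both labelled unstimulated ones (-0.91), as for 30.6% of all genes. The difference itself, tested as an interaction, was -1.11 with a limma adjusted p = 0.567. It was -1.56 without labelled unstimulated replicate 2. Without labelled unstimulated replicate 1, which stood apart by its macrophage and B cell markers, it was -0.65. Reads of Adcy7 and of Brd7, which overlap at their ends, cannot be told apart where counting does not use strand.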

How the results depend on the processing

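With 2 libraries a group, 1 library can turn a value. Over all alternatives and results, 639 values were rated the same and 104 were not. The 639 pool fold changes that kept direction and side of the threshold with counts of called genes that stayed equal or close. Of the 104, 15 were fold changes that reversed direction, 21 gained a call and 18 lost it. The other 50 were counts of called genes that moved further. The cause was not tested. The increase of Pde3b in unstimulated labelled cells was called with a pseudocount of 5 (1.91), at a minimum mean of 100 (1.92), with quantile normalization (1.91), on 4 libraries (1.92) and by DESeq2 (1.95), each of which gave 1 of the 6 genes as called, as did the unadjusted p. With libraries left out, Pde3b ranged from 1.62 to 2.23 and the number called from 0 to 3. Its change with stimulation in WT cells was 0.19 at equal totals and -1.11 to 0.45 with libraries left out, and that in labelled cells was -1.15 by DESeq2.

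At equal totals, the values of Pde4a and Pde7a with stimulation in WT cells were 0.14 and 0.25. Pde4d between unstimulated genotypes was 0.13 by edgeR and 0.17 by DESeq2, and the interaction of Pde4a was 0.014 with quantile normalization. With libraries left out, unstimulated genotype values ranged from -0.87 to 0.019 (Pde4b), -1.31 to 0.87 (Pde4d), -0.030 to 0.42 (Pde7a) and -0.17 to 0.74 (Adcy7), and interactions from -0.54 to 0.21 (Pde4a) and -0.028 to 2.15 (Pde4d).

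Of the 6 genes, the number called between stimulated genotypes was 0 to 1 with libraries left out and 1 at the unadjusted p. With stimulation in labelled cells it was 1 at equal totals, on 4 libraries and at 2-fold. It rose there at the unadjusted p, for which no share of all genes is given. In both genotypes it was lower in some fits with libraries left out. For the interaction it was 1 at the unadjusted p and 0 to 3 with libraries left out. Of the 57 pathway genes, the 6 called between unstimulated genotypes became 3 with a pseudocount of 0.1, 2 on every gene, on 4 libraries and by edgeR, 14 at the unadjusted p and 0 to 7 with libraries left out. The 0 of stimulated cells became 1 with quantile normalization, 4 by DESeq2, 11 at the unadjusted p and 0 to 4 with libraries left out. With stimulation, the 21 of WT cells became 5 to 24 with libraries left out, and the 14 of labelled cells 6 on 4 libraries, 22 at the unadjusted p and 10 to 21 with libraries left out. The interaction had 6 at the unadjusted p and 0 to 3 with libraries left out.

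The replicate numbers 1 and 2 are shared by both stimulated groups and by both labelled groups, where deviations of the same number had r = 0.167 and 0.257 over genes, and whether they mark a shared pool or sort is not given in the sources used here. With a replicate block, 1 of the 6 genes (Adcy7) and 2 of the 57 were called between stimulated genotypes, and 5 of the 6 were called lower with stimulation in labelled cells, among them Pde3b (-1.21). Over all 15419 genes the block gave 191 higher and 202 lower genes between stimulated genotypes, against 25 and 17 without it. With stimulation in labelled cells the block gave 1870 higher and 2224 lower genes, against 1997 and 1855 without it. Depth leaves genes near 3 reads, such as Pde1c and Pde2a, without a measurable fold.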

Other observations

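Other genes of the pathway had differences that were not called and are given as values. Ptgir, the prostacyclin receptor, was at 100.4 and 76.8 normalized counts in WT unstimulated libraries, 82.8 and 74.8 in labelled unstimulated ones, 13.2 and 41.0 in WT stimulated ones and 51.6 and 168 in labelled stimulated ones. Its genotype difference in stimulated cells was 1.95 on the log2 scale (limma adjusted p = 0.189), and the groups did not overlap. Adcy9, an adenylyl cyclase, was at 7.55 and 11.8 normalized counts in WT and at 43.0 and 30.7 in labelled unstimulated libraries (log2 fold change 1.84, limma adjusted p = 0.112), and at 12.1 to 25.7 in all stimulated libraries. Abcc4, which exports cAMP, was at 702 and 777 in WT and at 509.8 and 450.0 in labelled stimulated libraries (log2 fold change -0.62, limma adjusted p = 0.189).

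Of the 4 G protein subunit genes tested, Gnai2, of an inhibitory subunit, was the 1 called, lower with stimulation in WT cells. Gnai3 had a log2 fold change of -0.75 there (limma adjusted p = 0.0836) and was called by DESeq2, as was Gnal in labelled cells (-0.85, limma adjusted p = 0.0600). Of 9 anchoring protein genes, 1 was called higher and 3 lower with stimulation in WT cells, and 1 each way in labelled cells. Of 8 genes of protein kinase A and its inhibitors, 2 were called higher and 2 lower in WT cells, and 3 higher and 0 lower in labelled cells. These counts stand beside 10.2% of all genes called higher and 13.1% lower in WT cells, and 13.0% and 12.0% in labelled cells.

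Markers of further cell types had sums of 97.5 to 756 normalized counts for 5 neutrophil genes, 212 to 894 for 5 genes of CD8 T and NK cells and 32.4 to 217 for 6 erythroid genes. Labelled unstimulated replicate 1 held the highest sum for neutrophils and erythroid cells, and labelled stimulated replicate 1 that for CD8 T and NK cells. Ly6g was at 0 in every WT and in both labelled stimulated libraries.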
